A study of Drosophila melanogaster with 42 samples.

Results

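Among 491 candidate enhancer regions tested in whole Drosophila melanogaster embryos, 8 carry the name of a gene of heart patterning or of the Hox system. The rule uses the name and no measured value: the identifier, read up to its first _ mark, had to be H15, mid, prc, robo2 or its older name lea, Ubx, abd-A, odd, or the CG number of one of these genes. Ubx_18 and abd-A_3 stand for the Hox genes, mid_30, H15_12 and H15_33 for the T-box genes, odd_20 for odd skipped, lea_11 for robo2 and prc_36 for pericardin, which makes 8 regions of 7 genes. The other 483 regions served for comparison.

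The Drosophila heart is a tube that forms from the dorsal mesoderm. Hox genes such as Ultrabithorax (Ubx) and abdominal-A (abd-A) encode homeodomain transcription factors that give segments, and the heart along its length, their identity. The sister T-box genes midline (mid) and H15 encode transcription factors related to vertebrate Tbx20 that act in heart cells and in the segmented epidermis and nervous system. The gene odd skipped (odd) encodes a zinc finger factor that acts in segmentation and marks a set of pericardial cells, robo2 encodes a receptor for the guidance protein Slit, and pericardin (prc) encodes a collagen-like matrix protein around the heart.

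The assay counts DNA, not RNA. Males from a pool of transgenic lines, each with a region in front of a GFP reporter, were mated with females that make rat CD2, a surface protein used as a tag, under 1 of 3 drivers, which the labels call twi, mef2 and duf. These bear the names of twist and Mef2, transcription factor genes of mesoderm and muscle, and of dumbfounded, an adhesion gene of muscle founder cells. In all groups the eggs were laid over 2 to 2.5 h at 25 °C, the embryos then stayed at 18 °C for a further 9 to 10 h, and their cells were dissociated and sorted. A region that drives GFP in a population is represented more among its GFP+ cells than among input cells, which were sorted on CD2 but not on GFP. In all groups a transgenic pool came from the fathers and a CD2 transgene from the mothers, and what the CD2+ cells are depends on the driver. Whether all crosses used the same pool is not said. Because only inserts were amplified and sequenced, marker transcripts that would check the sorted cell types were not measured.

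The 42 libraries fall into 12 groups. For twi there were 3 libraries of CD2+ GFP+ cells against 3 CD2+ inputs, and 3 of CD2- GFP+ cells against 3 CD2- inputs. For mef2 there was 1 library of CD2+ GFP+ cells, set by the series design against 5 CD2- inputs of 20048 to 32326 cells (small inputs), and 3 libraries of CD2- GFP+ cells against 3 CD2- inputs of 200000 cells. For duf there was 1 library of CD2+ GFP+ cells against 5 small CD2- inputs of 39668 cells, and 6 libraries of CD2- GFP+ cells against 6 CD2- inputs of 200000 cells. For the small duf inputs the title lacks the sign after CD2, and CD2- was read from their other labels. Both single GFP+ libraries are labelled as pooled, and stored DNA extracts were pooled by sample type before the PCR. Whether replicates came from separate crosses is not said in the labels, and p-values therefore cover the spread among these libraries only, which could be technical.

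Libraries held 15601850 to 30671351 reads. Levels are given as CPM, the reads of a region per 1e6 reads of all regions in its library, and the floor for a region without reads was set at 3 reads, or 0.0978 to 0.192 CPM. These are PCR reads without molecular identifiers, so the floor covers counting error only, while standard errors and 95% intervals of log2 changes come from the fit and cover the spread between libraries. A library of twi or mef2 held 93 to 193 regions with 100 reads or more, and a library of duf 273 to 409. Since the labels give lanes for the duf libraries alone, the driver cannot be told apart from a batch or from the pool of flies.

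The positions are those of the deposited tables, in genome build dm3. Ubx_18 lies on 3R from 12506697 to 12507685 (989 bp) and abd-A_3 on 3R from 12699417 to 12700411 (995 bp). On 2L, mid_30 runs from 5495692 to 5496785 (1094 bp), H15_12 from 5411201 to 5412268 (1068 bp) and H15_33 from 5425041 to 5426038 (998 bp). At lower coordinates of 2L, odd_20 runs from 3617694 to 3618742 (1049 bp) and lea_11 from 1472556 to 1473570 (1015 bp). The only one on 3L is prc_36, from 11950588 to 11951688 (1101 bp). In a later gene table used for neighbour order only, H15 and mid follow each other with 0 protein-coding genes between them, and Ubx and abd-A enclose 2, CG31275 and Glut3. Between H15_12 and H15_33 lie 12772 bp, and none of the 8 regions overlaps another. Their GC content runs from 35.7% in prc_36 and 37.2% in abd-A_3 to 46.5% in H15_33 and 47.3% in Ubx_18, beside a median of 42.3% and a range of 28.0% to 62.1% over all regions. Whether each lies in an intron, an exon or between genes, and its sequence, were not analysed here.

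The 8 regions differed first in which libraries held them at all. Ubx_18 and abd-A_3 reached at least 100 reads in libraries of duf and of the other drivers, as did 214 of the 491 regions (43.6%). The T-box regions split by gene: mid_30 reached 100 reads in twi or mef2 libraries only, as did 17 regions (3.46%), whereas H15_12 and H15_33, and with them odd_20, did so in duf libraries only, as did 213 regions (43.4%). No library held 100 reads of lea_11 or prc_36, which places them among 47 regions (9.57%). For lea_11 there were 0 reads in all 42 libraries, and prc_36 had 1 read in total, in the second twi CD2- input, so neither region could be tested for activity with these data. Outside the duf libraries, the H15 and odd regions were at 0 reads except for 1 read of H15_12 in a twi CD2- GFP+ library, and in the 18 duf libraries mid_30 was at 0.

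**Figure D1:**
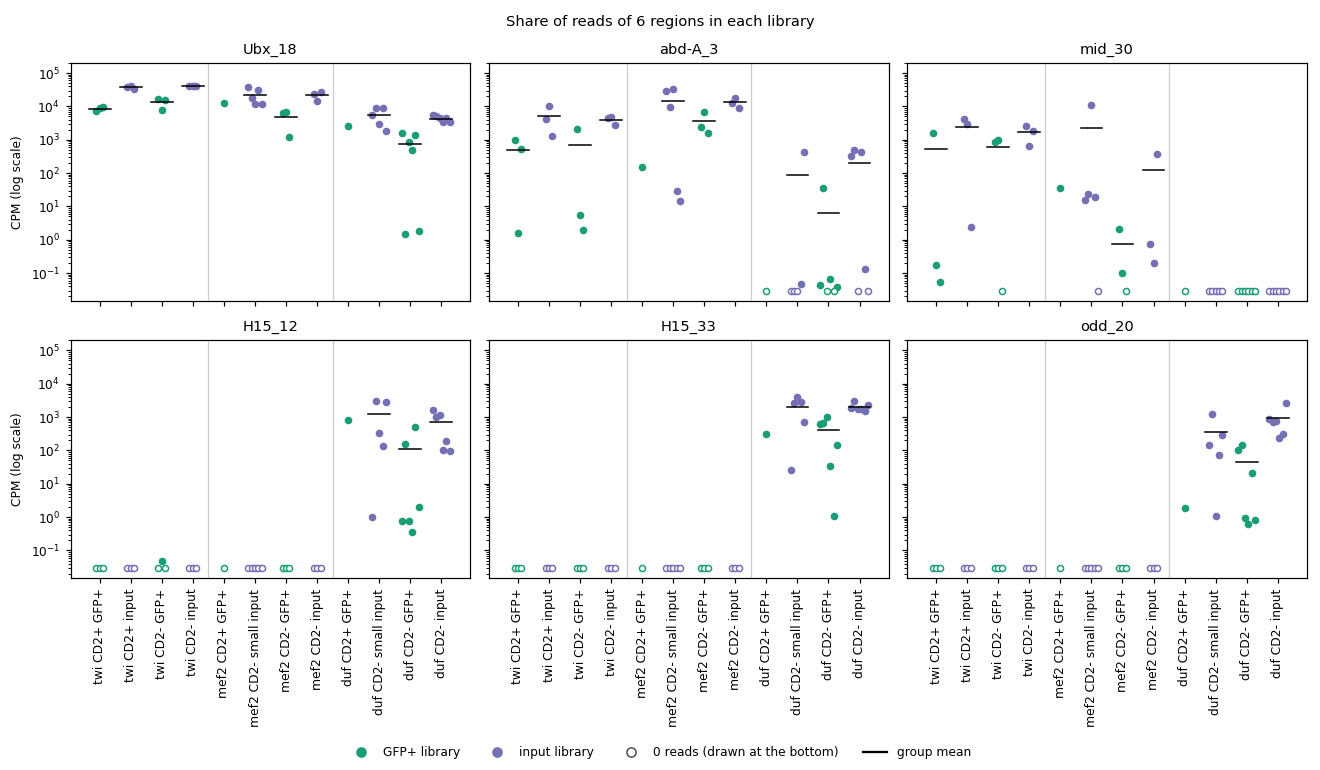
CPM (reads per 1e6 of a library, log axis) of the 6 regions that had more than 1 read, in every library. Each point is a library, GFP+ in green and input in violet, open points at the bottom had 0 reads, and bars are group means. Ubx_18 stays between 33686 and 41822 CPM in the twi inputs, all above the twi GFP+ libraries, while most other panels hold points that lie several powers of 10 apart within a group.

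Of the Hox regions, Ubx_18 had the higher mean in all 12 groups, although abd-A_3 exceeded it in single mef2 libraries. In twi CD2+ GFP+ cells it had 7398, 9202 and 9331 CPM, against 37225, 41572 and 33686 CPM in their input. All 3 GFP+ libraries lay below all 3 inputs, where Ubx_18 ranked between 2 and 5 among all regions. In twi CD2- cells the values were 17020, 8055 and 15598 CPM in GFP+ cells, against 40917, 41822 and 41462 CPM in the input. Again the groups did not overlap, and the input libraries differed by little, with a mean of 41400 ± 456 CPM (SD, n = 3) against 13558 ± 4818 CPM in GFP+ cells (SD, n = 3).

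These CPM are shares of a library. The 10 most abundant regions took 62.2% to 74.0% of the reads in twi CD2+ GFP+ libraries, against 30.9% to 31.5% in their inputs, and 53.7% to 61.8% in duf CD2- GFP+ libraries, against 14.0% to 16.8% in theirs. TMM scaling, which sets libraries level by the bulk of their regions, put the log2 change of Ubx_18 at -0.51 ± 0.50 (SE) in twi CD2+ cells, GFP+ over input, with an adjusted p of 0.782 by edgeR's quasi-likelihood test. That is also the median of the 195 regions tested, -0.51. In twi CD2- cells the change was -0.31 ± 0.46 (adjusted p = 0.908), beside a median of -0.29 over 204 regions. The 95% intervals ran from -1.64 to 0.63 in CD2+ and from -1.35 to 0.74 in CD2- cells. With scaling by total reads, the log2 change of Ubx_18 was -2.12 in twi CD2+ cells and passed the threshold (adjusted p = 0.0111), as did 2.05% of the regions tested in that direction, and the median region then stood at -2.12.

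In mef2 libraries Ubx_18 was again lower in share among GFP+ cells of the CD2- population. It had 6476, 7033 and 1238 CPM in mef2 CD2- GFP+ cells, against 23209, 14571 and 27264 CPM in their input, with no overlap. The single mef2 CD2+ GFP+ library had 12879 CPM, against 38384, 18223, 11899, 31125 and 12039 CPM in the small inputs. That value lies among the small inputs, in which Ubx_18 ranked between 4 and 33 among all regions. On the TMM scale the log2 changes were -0.50 ± 0.85 (SE) in CD2- cells (adjusted p = 0.892) and -0.92 ± 1.38 in CD2+ cells (adjusted p = 0.859).

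The duf libraries held Ubx_18 at a lower level. Among the 6 duf CD2- GFP+ libraries it had 1.53 CPM at the lowest, a median of 680 and 1631 at the highest, against 3309, 4424 and 5385 CPM in the 6 inputs. Every GFP+ library lay below every input, and 2 of them held only 37 and 46 reads. The single duf CD2+ GFP+ library had 2554 CPM, against 5574, 8806, 3017, 9153 and 1847 CPM in the small inputs, and lay between them. The log2 changes were -0.51 ± 1.09 (SE) in CD2- cells (adjusted p = 0.938 by edgeR's test) and -0.64 ± 1.16 in CD2+ cells (adjusted p = 0.984).

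Ordered by its mean, Ubx_18 stood highest in the twi CD2- inputs (41400 CPM) and the twi CD2+ inputs (37494), then in the small mef2 inputs (22334) and the mef2 CD2- inputs (21681). The twi CD2- GFP+ cells (13558), the mef2 CD2+ GFP+ library (12879) and the twi CD2+ GFP+ cells (8643) followed. At the low end were the small duf inputs (5679), the mef2 CD2- GFP+ cells (4916), the duf inputs (4334), the duf CD2+ GFP+ library (2554) and the duf CD2- GFP+ cells (738). Neighbouring groups in this order overlapped in their libraries, except that the mef2 CD2+ GFP+ library lay above the twi CD2+ GFP+ cells and that the duf CD2+ GFP+ library lay below all duf CD2- inputs and above all duf CD2- GFP+ libraries. The 2 regions whose group means followed Ubx_18 most closely over the 12 groups were CG11202_down_1 and CG11202_up_1 (Spearman's rho 0.965 and 0.909), both named for the T-box gene org-1. These 12 points share libraries and fly pools.

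The second Hox region, abd-A_3, was most abundant in mef2 libraries. It had 2483, 6900 and 1588 CPM in mef2 CD2- GFP+ cells, against 12859, 17717 and 9039 CPM in their input, and the groups did not overlap. The log2 change on the TMM scale was -0.20 ± 0.91 (SE, adjusted p = 0.968), beside a median of -0.40 over the 183 regions tested. The single mef2 CD2+ GFP+ library had 149 CPM, against 30064, 9646, 34368, 28.6 and 14.4 CPM in the small inputs. The small inputs fell into 3 libraries at or above 9646 CPM and 2 at or below 28.6 CPM, and the GFP+ library lay between these, with a log2 change of -6.70 ± 4.11 (adjusted p = 0.859).

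In twi libraries abd-A_3 was less abundant and one GFP+ library or more was nearly empty of it. It had 968, 1.65 and 542 CPM in twi CD2+ GFP+ cells, against 4108, 10081 and 1302 CPM in the input. In twi CD2- cells the GFP+ libraries had 2150, 5.39 and 2.01 CPM, against 4371, 4739 and 2868 CPM in the input. All GFP+ libraries lay below all inputs in both populations, but GFP+ libraries of the same group lay far apart, with 1.65 and 968 CPM as the ends in CD2+ cells. The log2 changes were -1.86 ± 1.95 (SE) in CD2+ and -1.21 ± 2.47 in CD2- cells, and edgeR's test gave adjusted p of 0.803 and 0.943. The CD2- value ran from -8.80, without the first GFP+ library, to -0.53, without the second or the third, and was -7.15 with the replicate number as a block, while the CD2+ value ran from -3.05 to -0.87 with 1 library left out. None of these passed.

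In duf libraries abd-A_3 was sporadic. Of the 6 CD2- GFP+ libraries only the second held more than 2 reads, 897 reads or 37.0 CPM, while 3 of the 6 inputs held 333, 491 and 421 CPM and the other 3 held 0, 3 and 0 reads. Among the small inputs only the fifth held more than 1 read, at 429 CPM, and the duf CD2+ GFP+ library had 0. The region was too rare to be tested in duf CD2- cells, and in the CD2+ comparison, where it was tested (adjusted p = 0.797), the difference rests on that 1 input library, so no fold is given.

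The midline region mid_30 was seen in twi libraries and in a few of mef2. In twi CD2+ GFP+ cells 1 library held 1609 CPM and the others 4 reads and 1 read, against inputs of 4241, 2890 and 2.48 CPM. In twi CD2- GFP+ cells it had 880, 985 and 0 CPM, against 2544, 632 and 1850 CPM in the input. The groups overlapped in both populations. The log2 changes were -0.52 ± 3.11 (SE, adjusted p = 0.958) and -0.18 ± 2.66 (adjusted p = 0.995), with 95% intervals from -7.61 to 6.56 and from -6.25 to 5.89, so changes of many fold in either direction were not detectable. In each twi library mid_30 either had at least 632 CPM or was at or below 2.48 CPM.

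In mef2 libraries mid_30 stood high in 1 library alone, the third small input, with 11338 CPM, whereas the other 4 had between 0 and 23.6 CPM. The mef2 CD2+ GFP+ library, at 36.8 CPM, lay above those 4 and below the third. In mef2 CD2- GFP+ cells it had 38, 2 and 0 reads, against 13, 4 and 7470 reads in the input. The log2 change of -5.77 ± 3.42 (SE, adjusted p = 0.389) in mef2 CD2- cells rests on that last input library, and without it the change was 2.31. Likewise -5.96 ± 7.32 (adjusted p = 0.859) in CD2+ cells became 1.52 without the third small input.

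Of the 2 regions of H15, H15_33 was the steadier. It had 1.05 CPM at the lowest, a median of 390 and 1040 at the highest in the 6 duf CD2- GFP+ libraries, against 1513, 1834 and 2994 CPM in the 6 inputs. The groups did not overlap, and the inputs averaged 2045 ± 535 CPM (SD, n = 6). The duf CD2+ GFP+ library had 309 CPM, against 25.4 to 4053 CPM in the small inputs, and was above the first of them only. The log2 changes were -0.19 ± 1.04 (SE) in CD2- cells (adjusted p = 0.977, 95% interval -2.40 to 2.02) and -2.20 ± 2.80 in CD2+ cells (adjusted p = 0.889).

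H15_12, on the side of H15_33 that faces away from mid_30, was less abundant and more uneven. The 6 duf CD2- GFP+ libraries had 0.359 CPM at the lowest, a median of 1.39 and 517 at the highest, and only the second and the fifth held over 100 reads. The 6 inputs had 96.4, 604 and 1620 CPM at the lowest, the median and the highest. The groups overlapped through these 2 GFP+ libraries, and the log2 change was -0.66 ± 1.64 (SE, adjusted p = 0.948). It was -2.42 without the fifth GFP+ library, -4.59 with the replicate number as a block and -7.02 with the lane as a block, none of which passed the threshold. In the duf CD2+ GFP+ library H15_12 had 815 CPM, against 1.03, 3119, 345, 132 and 2789 CPM in the small inputs, in the middle of their range, with a log2 change of -0.09 ± 3.08 (adjusted p = 0.992). The 2 H15 regions did not go missing in the same libraries. The fifth duf CD2- GFP+ library held 9853 reads of H15_12 and 20 of H15_33, and the third held 18 of H15_12 and 23660 of H15_33.

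The odd skipped region odd_20 showed the most negative duf CD2- value of the 4 regions tested there. It had 0.619 CPM at the lowest, a median of 11.0 and 144 at the highest in the 6 duf CD2- GFP+ libraries, against 231, 729 and 2569 CPM in the 6 inputs. The groups did not overlap. The log2 change was -2.36 ± 1.48 (SE) with an adjusted p of 0.587 by edgeR's test, and its 95% interval ran from -5.51 to 0.78. With scaling by total reads it was -4.35 and passed (adjusted p = 0.0477), as did 23.8% of all regions tested in that direction. The duf CD2+ GFP+ library had 1.82 CPM, against 149, 1272, 1.09, 75.0 and 292 CPM in the small inputs, above the third of them only. That change, -7.05 ± 5.99 (adjusted p = 0.797), passed the threshold with DESeq2 (-6.86, adjusted p = 0.0290), which called 16.9% of the regions lower in this comparison.

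The reads of odd_20 were placed differently from those of the other named regions that reached 100 reads. The tables count separately the reads at the start and at the end of a region, and in the 13 libraries with at least 100 reads of odd_20 these made up 23.2% to 100% of its reads, with a median of 99.0%. The share was over 90% in 8 of the 13 libraries. For Ubx_18, abd-A_3, mid_30, H15_12 and H15_33 the share ran from 14.4% to 29.5%. Over the other regions of the duf libraries the median was 23.8%, and 325 of 6048 values (5.37%), in 63 of 422 regions (14.9%), were over 90%. Of these regions, 11 were over 90% in more duf libraries than odd_20 was.

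Reads inside odd_20, away from its ends, numbered 0 to 12 in the 6 duf CD2- GFP+ libraries (median 3), against 0 to 46311 in the 6 inputs (median 680.5). The input values were carried by the sixth library, with 46311 inside reads, and the fourth, with 4901. Among the small inputs the second held 16249 and the fifth 2646, and the duf CD2+ GFP+ library held 1. Counting inside reads only, odd_20 was too rare to be tested in duf CD2- cells. What places reads at the ends of a region was not tested.

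**Figure D2:**
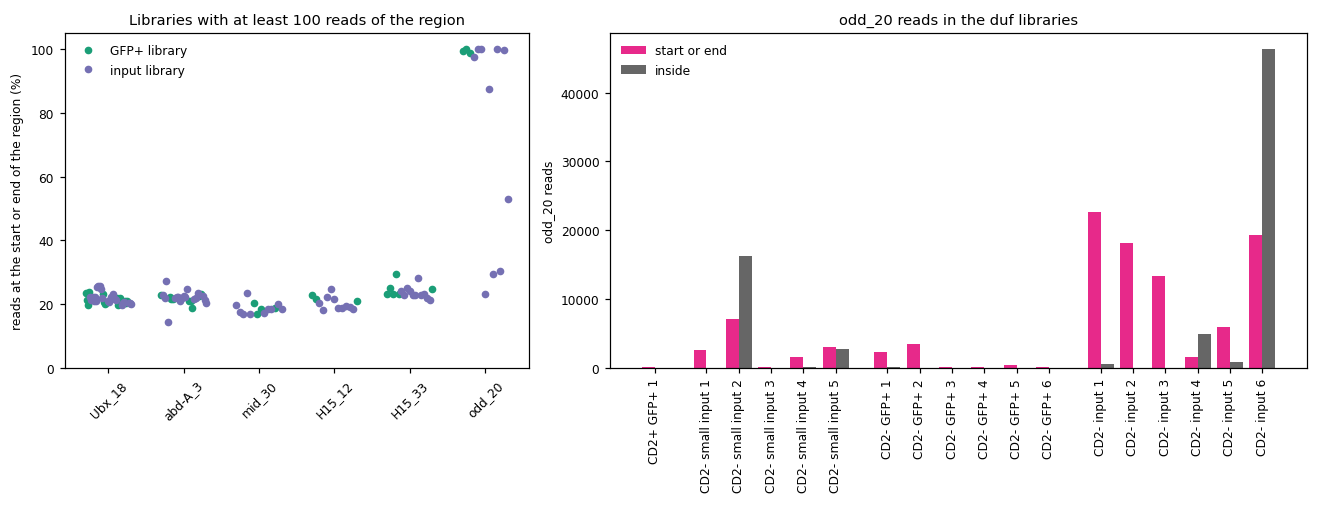
Left, percent of a region's reads at its start or end, each point a library with at least 100 reads of the region, GFP+ in green and input in violet. Right, reads of odd_20 at its start or end (pink) and inside it (grey) in each duf library. The 5 regions other than odd_20 stay between 14.4% and 29.5%, and the 2 libraries with the most inside reads of odd_20 are the sixth input (46311) and the second small input (16249).

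None of the regions passed the threshold (adjusted p of 0.05) in any of the 6 comparisons of GFP+ cells with input by edgeR's test: 0 of 3 in each of the 4 twi and mef2 comparisons, 0 of 5 in duf CD2+ and 0 of 4 in duf CD2- cells. None had an unadjusted p under 0.05 either, which 2.5% to 14.8% of all regions had in either direction. DESeq2 called 0 of those for which it gave a result, but for odd_20 in duf CD2+ cells. It gave no result for mid_30 in mef2 CD2+ and CD2- cells or for abd-A_3 in duf CD2+ cells, so these could not be called. Of all regions it called 6.67% higher and 5.64% lower in twi CD2+ cells and 5.88% and 4.41% in twi CD2- cells. With mef2 it called 0.435% higher and 0.87% lower in CD2+ and 16.9% and 13.7% in CD2- cells, and with duf 2.12% higher and 16.9% lower in CD2+ and 14.5% and 1.5% in CD2- cells. Of all regions tested, edgeR called 5.13% higher and 0.0% lower in twi CD2+ cells, and 2.94% and 0.0% in the CD2- cells of that driver. With mef2 it called 0.0% in each direction in CD2+ cells, and 5.46% higher and 2.19% lower in CD2- cells. With duf it called 0.235% higher and 0.0% lower in CD2+ cells, and 11.8% higher and 1.25% lower in CD2- cells. With so few calls among all regions, 0 of 3 to 5 is near the background.

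All 21 log2 changes were below 0 on the TMM scale, beside 51.2% to 67.8% of all regions tested. With twi their medians were -0.52 in CD2+ cells (-0.51 over all regions) and -0.31 in CD2- cells (-0.29). With mef2 they were -5.96 in CD2+ (-2.29) and -0.50 in CD2- cells (-0.40), and with duf -2.20 in CD2+ (-0.72) and -0.58 in CD2- cells (-0.07). The sign is not stable for the values near 0, nor for the large mef2 values of mid_30. Without 1 input library these became 2.31 in CD2- and 1.52 in CD2+ cells. With DESeq2 the change of Ubx_18 was 1.55 in twi CD2- and 0.81 in mef2 CD2- cells, and that of abd-A_3 was 1.21 in mef2 CD2- cells. The changes of odd_20 in both duf populations, of abd-A_3 in twi CD2+, twi CD2- and mef2 CD2+ cells, of H15_12 in duf CD2- cells and of H15_33 in duf CD2+ cells stayed below 0 under every alternative that gave a value, as did those of Ubx_18 in both duf populations.

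In CPM, every GFP+ library lay below every input for 2 of 3 regions in twi CD2+ cells, Ubx_18 and abd-A_3, where 41.5% of all tested regions did so. The same 2 of 3 did so in the CD2- cells of twi (38.2% of all) and in those of mef2 (41.5% of all). The count was 3 of 4 in duf CD2- cells (Ubx_18, H15_33 and odd_20), beside 22.2% of all regions. For odd_20 this holds for all reads, while its inside reads overlapped, at 0 to 12 in GFP+ and 0 to 46311 in input libraries. The count was 0 of 3 in mef2 CD2+ (12.2% of all) and 0 of 5 in duf CD2+ cells (24.7%). No region of the 8 had every GFP+ library above every input. Of all regions tested, 6.67% had this in twi CD2+ cells and 3.43% in twi CD2- cells, 13.0% with the single mef2 CD2+ library and 8.74% in mef2 CD2- cells, and 12.2% with the single duf CD2+ library and 4.0% in duf CD2- cells. Summed, the 8 regions took 0.0149% to 0.237% of the reads in duf CD2- GFP+ libraries, against 0.584% to 1.03% in their inputs, and 0.920% to 0.997% in twi CD2+ GFP+ libraries, against 3.50% to 5.45% in the inputs.

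**Figure D3:**
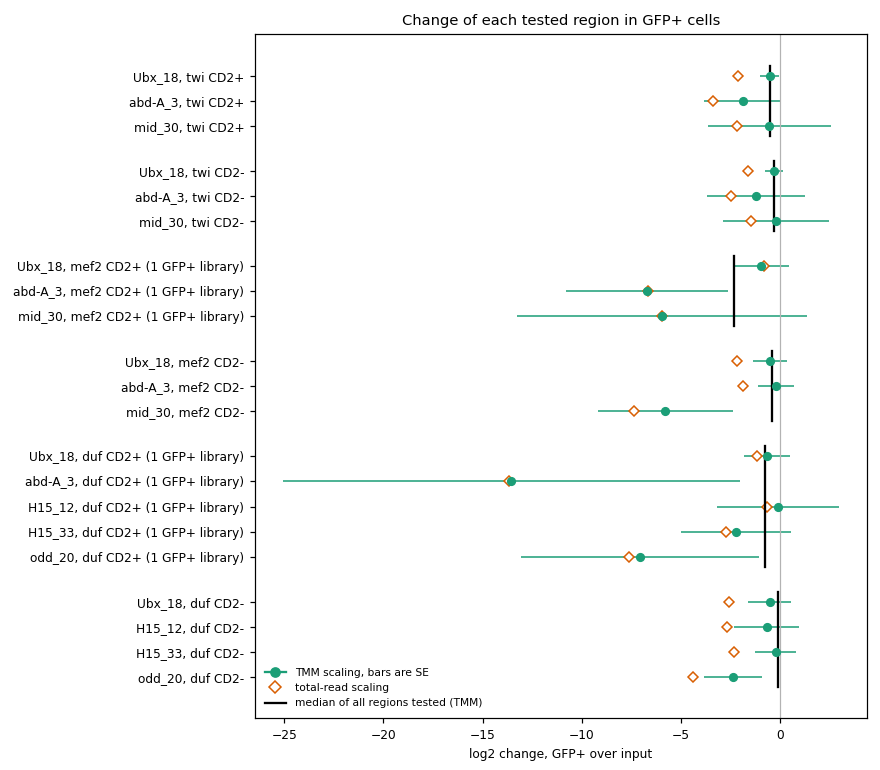
Log2 change, GFP+ over input, of every tested region in 6 comparisons, with TMM scaling (filled points, bars are SE) and scaling by total reads (open diamonds), and the median of all regions tested (black lines, TMM). All 21 filled points lie below 0, those of Ubx_18 between -0.92 and -0.31, and the bars of abd-A_3 in duf CD2+ and mid_30 in mef2 CD2+ cells are the widest.

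Several regions were almost missing from some GFP+ libraries. Among regions with at least 1000 reads in every input, those with fewer than 100 reads in at least 1 GFP+ library were all 4 of the named regions that qualified in duf CD2- cells, beside 164 of 303 regions (54.1%). H15_12 was so in 4 of 6 GFP+ libraries, odd_20 in 3, Ubx_18 in 2 and H15_33 in 1. In twi CD2- cells abd-A_3 and mid_30, 2 of 3, had such a library (47.3% of all regions), in twi CD2+ cells 1 of 2, abd-A_3 (39.2%), and in mef2 CD2- cells 0 of 2 (54.0%). These GFP+ libraries came from 36206 to 138635 cells and the inputs from 100000 to 200000, and the part of cell number in this was not tested.

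Lanes 1 and 8 held duf CD2- GFP+ and input libraries together, which allowed a comparison within a lane. In lane 1, Ubx_18 had 491 CPM in the GFP+ library and 5385 in the input, H15_33 had 34.3 and 1891, H15_12 had 0.359 and 1620, and odd_20 had 0.619 and 899. In lane 8, with 1 GFP+ library against the mean of 2 inputs, Ubx_18 had 1631 and 3947 CPM, H15_33 had 635 and 1919, H15_12 had 0.786 and 142, and odd_20 had 100.1 and 1435. By share of reads, GFP+ was the lower side for these 4 regions in both lanes. For Ubx_18, H15_33 and odd_20 this could not have come out otherwise, since every GFP+ library lay below every input in any lane. How many of all regions were lower within a lane was not counted. With scaling by total reads, the median of the 400 regions tested in duf CD2- cells was itself -2.13. The rarer abd-A_3 had 0.065 CPM in GFP+ and 333 in the input in lane 1, but 0.044 and 0.068 in lane 8. With the lane as a block, the log2 changes in edgeR's fit were -0.074 for Ubx_18, -1.01 for H15_33, -7.02 for H15_12 and -3.68 for odd_20, with adjusted p from 0.341 to 0.990. For any region, the change with the lane as a block rests on the libraries of lanes 1 and 8.

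Whether the enrichment of a region differed between CD2+ and CD2- cells was tested in 1 fit per driver over its 4 groups. None of the 3 regions tested for twi, the 3 for mef2 and the 5 for duf passed by edgeR's test. Of these, 0 had an unadjusted p under 0.05, beside 1.4% to 9.09% of all regions in either direction. For Ubx_18 the difference, CD2+ minus CD2-, was -0.79 ± 1.70 (SE) with mef2 and 0.23 ± 2.09 with duf, with adjusted p of 0.859 and 0.991. The smallest adjusted p belonged to abd-A_3 with mef2, at -6.83 ± 4.10 (adjusted p = 0.450). DESeq2 called abd-A_3 lower with duf (adjusted p = 0.00886), where 19.3% of all regions were called lower by that tool and the CD2+ GFP+ library was at 0 reads. Over all regions, edgeR called 0.0% in both directions for twi and duf, and 0.0% higher and 0.433% lower for mef2.

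Inputs were compared with each other as a background without selection on GFP. For twi CD2+ against CD2- inputs, the log2 differences were 0.027 ± 0.12 for Ubx_18, 0.47 ± 0.80 for abd-A_3 and 0.63 ± 1.81 for mid_30 (SE). Small against 200000-cell inputs differed by 4.55 ± 3.71 (SE) for mid_30 with mef2 (adjusted p = 0.585), and by 0.80 ± 0.47 for Ubx_18, 1.33 ± 1.41 for H15_12, 0.39 ± 0.90 for H15_33 and -1.03 ± 1.44 for odd_20 with duf, where the lowest adjusted p was 0.939. Neither edgeR (0.0% of all regions in each of the 3 comparisons) nor DESeq2 called any of the named regions. Of all regions DESeq2 called 1.47% higher and 0.98% lower for twi, 12.2% and 7.69% for mef2, and 0.728% and 1.21% for duf. No named region had an unadjusted p under 0.05, beside 0.0% to 15.4% of all regions in either direction.

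Few other genes of these pathways gave their name to any of the 491 regions. Regions with ChIPCRM, CBP or DHS names carry no gene name, and whether any lie near these genes was not examined. Of 27 further genes of heart and dorsal mesoderm only Mef2 had a region named for it, and of 9 further Hox genes and cofactors only homothorax (hth). Of 6 further T-box genes only org-1 did, with 20 regions, and of the 3 relatives of odd none. Mef2_29 did not pass in duf CD2- cells (-1.23 ± 1.54, adjusted p = 0.929) or in duf CD2+ cells (-1.14 ± 4.67, adjusted p = 0.984). Of the org-1 regions, 14 were tested in duf CD2- cells and 1 passed as higher, beside the 11.8% of all regions called higher there. This was CG11202_down_5, on X from 8338314 to 8339413, higher by 5.98 ± 1.44 on the log2 scale (adjusted p = 0.00840). Its change was 3.92 with scaling by total reads (adjusted p = 0.0554) and 4.65 ± 3.20 with the lane as a block (adjusted p = 0.637).

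The region of homothorax, which encodes a homeodomain cofactor that binds DNA together with Hox proteins, was called higher in GFP+ cells. The region hth_3, on 3R from 6427784 to 6428746, had 2254 CPM at the lowest, a median of 5183 and 13915 at the highest in the 6 duf CD2- GFP+ libraries, against 340, 1514 and 3750 CPM in the inputs. The groups overlapped, with 2 GFP+ libraries within the range of the inputs. The log2 change was 4.01 ± 0.70 (SE) with an adjusted p of 0.000521, and it passed under all alternatives run. It was 1.89 with scaling by total reads (adjusted p = 0.0467) and 4.86 with the lane as a block (adjusted p = 0.0333). In the duf CD2+ GFP+ library hth_3 had 14865 CPM, above all 5 small inputs (18.9 to 1556 CPM), with a log2 change of 5.98 ± 1.94 and an adjusted p of 0.342. With the spread taken from all 4 duf groups the change was 5.95, and this was the only alternative that passed in this comparison. The change was 5.42 with scaling by total reads and 4.66 against all CD2- inputs. It ran from 5.67 to 8.90 with 1 small input left out. DESeq2 gave no p-value, and the comparison rests on 1 GFP+ library. In twi and mef2 libraries it was at or near 0.

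**Figure D4:**
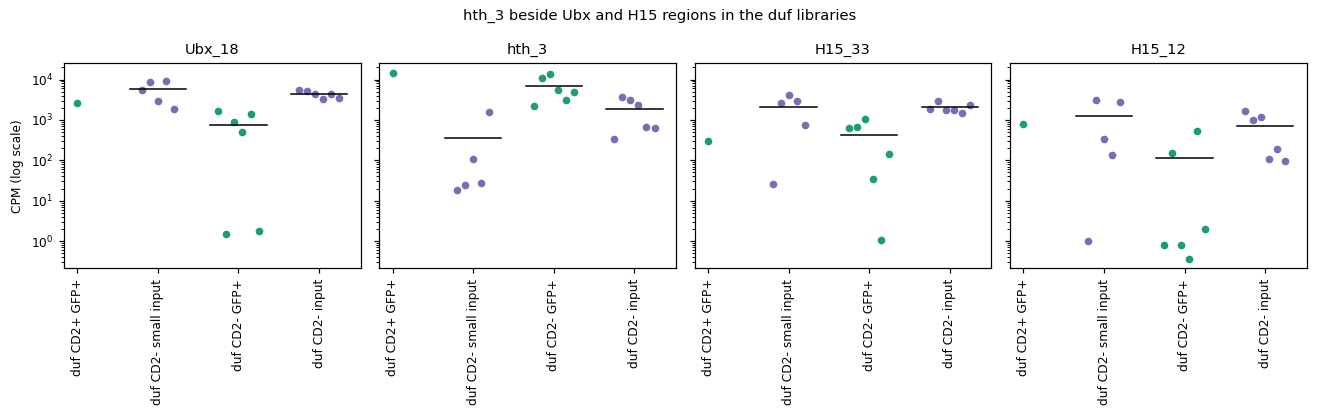
CPM (log axis) of Ubx_18, hth_3, H15_33 and H15_12 in the duf libraries, GFP+ in green and input in violet, each point a library and each bar a group mean. In duf CD2- cells the mean of hth_3 is 6781 in GFP+ cells and 1823 in the input, whereas that of Ubx_18 is 738 in GFP+ cells and 4334 in the input.

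The regions most alike in their 12 group means shared mainly the set of libraries that held them. For H15_33 these were CBP1942 and CBP43 and for odd_20 CBP51 and CBP5377, each with a Spearman's rho of 1. For H15_12 they were G-oalpha47A_5 (0.948) and CBP2776 (0.937), for abd-A_3 ChIPCRM770 (0.933) and CG11202_down_7 (0.923), and for mid_30 DHS_FC_7 (0.957) and ChIPCRM752 (0.897). The H15 and odd regions are at or near 0 in 8 of the 12 groups, so their ranks turn on the 4 duf groups. Ties were taken in order of name and were not counted, so other regions may share a rho of 1 with H15_33 or odd_20.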

How the data were processed

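The members and gene lists were chosen with earlier results of these data known. Each of the 42 deposited tables lists regions of 1 library. CASAVA 1.8 and the build dm3 are named, per the submitters' processing notes. The mapper's version and settings are not given in the sources used here. Per the file headers, the deposited tables hold counts of reads at the start and at the end of each region. The deposited total per region is an expected count, since 2 to 87 regions per library hold a fraction, none of them among the 8 regions described, and it was rounded to whole numbers. The deposited GC fraction of a region is printed here in percent. No normalisation by the authors is visible in the tables. In 11 tables, 3 regions were listed under more than 1 name and were summed by coordinates. No table column of another sample was found.

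Counts were tested with edgeR 4.0.16 (R 4.3.3, limma 3.58.1): TMM scaling, filterByExpr, quasi-likelihood F tests on all regions of each comparison, and Benjamini-Hochberg adjustment at 0.05 over all regions tested. Only the groups of a comparison entered its fit, and where GFP+ cells have 1 library, its spread is taken to be that of the inputs. Standard errors were derived from F and the log2 change, and intervals are at 95%. The fit was also run on simulated counts, which varied less between libraries than these data, so that run does not show how the fit performs here. Alternatives were DESeq2 1.42.0, scaling by total reads, no filter, a mean count of at least 100, the replicate number or lane as a block, other choices of control libraries, each library left out, and, added after seeing the data, reads inside the region only. Compared with TMM, scaling by total reads moved the median region by -1.61, -1.30, 0.04, -1.59, -0.53 and -2.08 on the log2 scale in the CD2+ and CD2- cells of twi, then of mef2, then of duf. For the CD2+ minus CD2- differences the move was -0.39 (twi), 1.86 (mef2) and 1.24 (duf), and between inputs it was -0.18, -0.11 and -0.38 in that order.

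Regions with a mean of at least 1000 CPM over all libraries, or past the threshold in a test, were to be given in every library, and others by range. Those most alike were the 2 regions with the highest Spearman correlation of group mean log2(CPM + 1), for members with a mean of at least 100 CPM. Ties were broken by name. CPM values of regions below those limits and hth_3 and CG11202_down_5, members of the further gene lists, were added after their values were seen. Gene symbols and neighbour order came from a RefSeq gene table of a later assembly, whose coordinates were not used.

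Deviations from group means of same-numbered GFP+ and input libraries had correlations of 0.148 to 0.304 for twi CD2+ and of 0.216 to 0.276 for its CD2- cells. They were 0.198 to 0.373 for duf CD2- and 0.045 to 0.182 for mef2 CD2- cells, and twi inputs among themselves had 0.458 to 0.670. The duf inputs among themselves had -0.094 to 0.098 and the mef2 inputs -0.187 to -0.060. The GFP+ and input pairs of twi and duf, and the twi inputs, were above 0.1 in every pair. Same-numbered libraries vary together there, although the labels state no shared batch. Changes given without a named block come from unpaired fits. With the replicate number as a block, mid_30 was at -4.33 and Ubx_18 at -0.53 in twi CD2+ cells. In duf CD2- cells odd_20 was then at -4.32 and Ubx_18 at -1.65. Among 68 pairs of libraries within groups, none was identical or within sampling noise.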

Additional observations from a re-analysis of the deposited data

Results flagged for a closer look

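Of 18 sets of 4 to 10 libraries examined, 6 held a library far from the others, by the gap to its nearest neighbour relative to the whole range at the 95% level. By chance the rule flags about 1 in 20 sets only where values are normally distributed. The CPM here were skewed, as for abd-A_3 in duf CD2- GFP+ cells, with a median of 0.042 and a highest value of 37.0. The 6 of 18 can therefore not be set against that rate. In duf CD2- GFP+ cells these were the fifth library for H15_12, at 517 CPM, and the second for abd-A_3, at 37.0 CPM. Among the small duf inputs they were the fifth for abd-A_3, at 429 CPM, and the second for odd_20, at 1272 CPM. The sixth duf CD2- input stood apart for odd_20, at 2569 CPM, and the third small mef2 input for mid_30, at 11338 CPM. All 6 are the highest value of their group.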

How the results depend on the processing

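Of 178 counts of named regions called under an alternative, 174 were 0, and 4 were 1: twi CD2+ and duf CD2- with total-read scaling, and duf CD2+ and the duf difference with DESeq2. The replicate block changed no call, and no region was called with any library left out. Log2 values turned positive with DESeq2 for Ubx_18 in twi CD2+ (0.048), twi CD2- (1.55), mef2 CD2+ (0.58) and mef2 CD2- cells (0.81) and in the mef2 difference (0.060), for mid_30 in twi CD2- (0.51), abd-A_3 in mef2 CD2- (1.21) and H15_12 in duf CD2+ cells (0.052), and turned negative for Ubx_18 in the duf difference (-0.18). H15_12 in duf CD2+ cells was also 0.029 with the spread of all 4 groups and 0.63 against all CD2- inputs. The mef2 difference was 1.35 for Ubx_18 and 1.38 for mid_30 with total-read scaling, and 0.27 and 0.72 with no filter. The twi difference was 0.079 for Ubx_18 and 0.040 for mid_30 with no filter, and 1.16 for abd-A_3 and 6.65 for mid_30 with the replicate block. With libraries left out, values ran from -0.72 to 0.069 for Ubx_18 and -0.95 to 0.21 for abd-A_3 in mef2 CD2-, -0.74 to 0.057 for H15_33 in duf CD2-, and -0.40 to 0.55 for H15_12 in duf CD2+ cells. For mid_30 they ran from -12.48 to 0.40 (CD2+) and -0.63 to 0.39 (CD2-) with twi, and from -6.28 to 1.52 (CD2+) and -9.29 to 2.31 (CD2-) with mef2. Differences ran from -0.46 to 0.25 (twi), -0.98 to 0.30 (mef2) and -0.036 to 0.63 (duf) for Ubx_18, -1.39 to 7.32 (twi) and -10.72 to 1.93 (duf) for abd-A_3, and -12.10 to 0.93 (twi) and -8.54 to 7.25 (mef2) for mid_30. The cause of these reversals was not tested. Both single GFP+ libraries could not be left out, and regions with a few reads in most libraries have intervals too wide to read.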
